A study of Mus musculus with 2 samples.

Results

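Interferon response and innate sensor genes were compared between skin cells that stained for the zinc importer ZIP10 and skin cells that did not. The 52 genes were a written list of symbols: 25 interferon-stimulated effectors, 9 Irf and Stat transcription factors, 3 RNA helicase sensors, 7 Toll-like receptors with their adaptor Myd88, the sensors or adaptors Nod1, Nod2 and Tmem173, and 4 chains of the interferon receptors. All 52 were present among the 23233 genes of the deposited table. The tested population was ZIP10-positive cells and the other was ZIP10-negative cells, each 1 library of polyadenylated RNA. Both came from ventral skin of C57BL/6 mice aged 7 days, with no transgene or treatment named in the labels, and were separated by flow cytometry after overnight digestion in the cold with Dispase and collagenase. The labels do not give the number of animals or any pooling, and the sort used the ZIP10 stain and a viability dye but no marker of a single cell type. With 1 library per group there was no replicate, no test and no p-value, so every difference describes these 2 libraries.

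Interferons are cytokines that cells release when they sense viral or bacterial molecules. Toll-like receptors read such molecules at the cell surface or in endosomes, Ddx58 (RIG-I), Ifih1 (MDA5) and Dhx58 (LGP2) read RNA in the cytosol, and Tmem173 (STING) relays the sensing of cytosolic DNA. These routes activate Irf factors, and the released interferons bind receptors made of Ifnar1 with Ifnar2 or of Ifngr1 with Ifngr2. The receptors activate Stat factors, which with Irf9 switch on effectors such as Isg15, the Ifit, Oas and Mx genes and the guanylate-binding proteins. In skin, keratinocytes, resident T cells, macrophages and dendritic cells all carry parts of this system.

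The DNA letters that mark many of these genes are shown for 8 of them, chosen because their values ran in both directions and their promoters hold the core of the interferon-stimulated response element. That core was searched as GAAA, 2 bases of any kind and GAAA again, on either strand, in RefSeq promoters of build GRCm38.p6 that run from 250 bases before to 50 bases after each gene's start. The expression values were made on another build, mm9, so these coordinates serve only to place the sequences. Capitals mark the core, which overlaps itself where the run of capitals is longer than a single copy, and each sequence is written 5′ to 3′ on the gene's own strand.
Isg15: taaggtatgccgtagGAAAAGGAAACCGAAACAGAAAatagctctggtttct
Ifit1: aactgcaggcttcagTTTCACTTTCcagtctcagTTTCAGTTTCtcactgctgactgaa
Oas1a: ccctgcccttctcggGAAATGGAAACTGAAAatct
Bst2: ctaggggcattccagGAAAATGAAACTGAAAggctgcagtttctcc
Gbp3: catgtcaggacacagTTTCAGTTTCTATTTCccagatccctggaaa
Ifitm2: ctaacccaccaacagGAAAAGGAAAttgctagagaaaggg
Oas3: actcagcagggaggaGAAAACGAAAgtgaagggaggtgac
Myd88: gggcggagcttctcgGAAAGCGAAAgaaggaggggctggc

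The windows lie at chr4:156200860-156200911 (minus strand) for Isg15, chr19:34640770-34640828 (plus) for Ifit1, chr5:120907526-120907560 (minus) for Oas1a and chr8:71537572-71537617 (minus) for Bst2. Those of Gbp3, Ifitm2, Oas3 and Myd88 lie at chr3:142559984-142560029 (plus), chr7:140955983-140956022 (minus), chr5:120777710-120777749 (minus) and chr9:119340034-119340073 (minus). In Isg15 the core occurred 3 times in one overlapping run that began 78 bases before the start. Of the 52 genes 41 had a promoter in the RefSeq table, and 16 of these (39.0%) held the core, against 3.99% of the 27025 genes of that table. Among effectors it was 10 of 18, among Irf and Stat factors 2 of 9 (Irf2 and Stat2), and among the 4 receptor chains none. A match is a description of letters and not a measured binding site.

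Most genes had larger RPKM values in the ZIP10-positive library, RPKM being reads scaled by transcript length and library size. Among 9620 genes at 1 RPKM or more in both libraries the median log2 ratio of ZIP10-positive to ZIP10-negative was 0.98, a ratio of 1.97. Each gene is therefore read relative to this median gene, as log2 ratios with a pseudocount of 1 RPKM, which understates differences of low genes. The libraries held an estimated 2.78e+06 reads from ZIP10-positive and 2.71e+06 from ZIP10-negative cells, an estimate that rests on transcript lengths of another annotation. Globin transcripts took 3.46% of all RPKM of ZIP10-positive cells, against 59.4% of that of ZIP10-negative cells. Slc39a10, the gene of ZIP10, was measured at 49.4 RPKM in ZIP10-positive cells, against 11.1 RPKM in ZIP10-negative cells; the sort was on its protein, so this checks the labels and is no finding.

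Over all its classes, the interferon and sensor list did not move in 1 direction. Of the 52 genes 36 reached 1 RPKM in a library, and 6 of them (16.7%) exceeded the median gene 2-fold or more in ZIP10-positive cells, where the same held for 14.7% of the 12249 genes compared. Another 4 (11.1%) lay 2-fold or more below it, where the share over all genes was 11.4%. Both shares lay near those of all genes. The higher genes were Ifi27l2a, Oas1a (against a listed 0, so counted through the pseudocount), Irf5, Tlr2, Irf3 and Ifngr1, and the lower genes were Isg15, Irf7, Irf1 and Stat3. The median log2 ratio of the 36 relative to the median gene was 0.32, against 0.094 for all genes compared. As deposited, without reference to the median gene, 18 of the 36 (50.0%) were at least 2-fold higher, where the share over all genes was 44.1%, and 1 (2.78%), Isg15, was at least 2-fold lower, where it was 3.55%.

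The filter bears on these counts. Of the 36 genes 27 reached 1 RPKM in both libraries, and the other 9 reached it in the ZIP10-positive library alone. Those 9 could count as 2-fold different in that direction only. Among the 27, 4 differed 2-fold or more upwards and 4 downwards, and the median log2 ratio was -0.073. Over all 9620 genes at 1 RPKM or more in both libraries, 960 did so upwards and 961 downwards. Another 11 genes were above 0 but under 1 RPKM in both libraries, and 5 (Oas2, Ifi44, Mx1, Mx2 and Usp18) were listed at 0 in both. A listed 0 can be a failed estimate in this table, since the broadly expressed Psmg4 and Ndufaf3 were listed at 0 in ZIP10-negative cells, against 69.5 and 24.97 RPKM in ZIP10-positive cells.

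**Figure D1:**
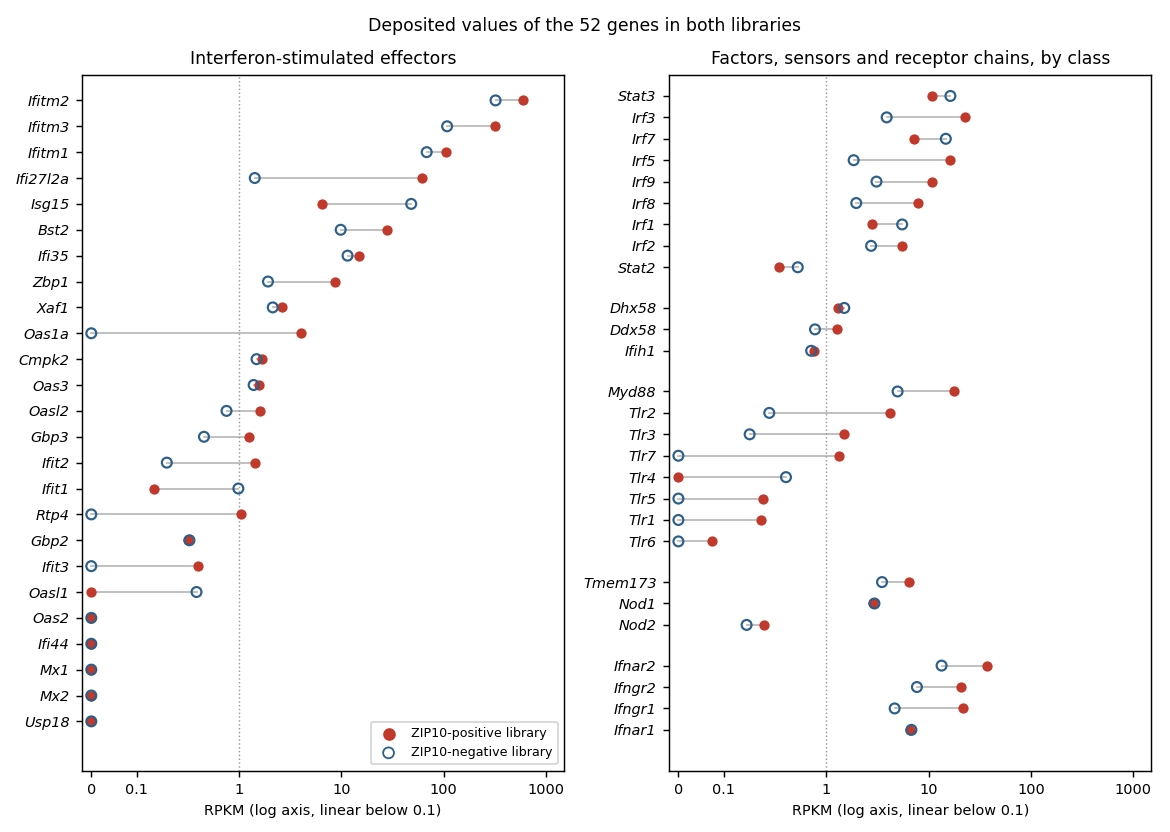
RPKM of each of the 52 genes in the ZIP10-positive library (filled red) and the ZIP10-negative library (open blue), on a log axis that is linear below 0.1, with effectors on the left and the other classes on the right. Ifitm2, Ifitm3 and Ifitm1 stand highest in both libraries, Isg15 and Ifi27l2a are far apart in opposite directions, and 5 effectors are listed at 0 in both.

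Interferon-stimulated effectors were mostly low, with a few abundant exceptions that differed in direction. Of 25 effectors 16 reached 1 RPKM in a library. Relative to the median gene 2 of these were 2-fold higher or more, 1 was 2-fold lower or more and 13 were neither. As shares these are 12.5% higher and 6.25% lower, against 14.7% and 11.4% of all genes. The median log2 ratio of the 16 was 0.13, and it turned to -0.33 over the 11 at 1 RPKM or more in both libraries. The summed level of the 25 was 1158 RPKM in ZIP10-positive cells, against 577 RPKM in ZIP10-negative cells, but 1023 and 496 RPKM of it came from Ifitm1, Ifitm2 and Ifitm3. Without these the sums were 135 and 80.7 RPKM.

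Isg15 had the lowest ratio of the list. It encodes a ubiquitin-like protein that is attached to other proteins after interferon exposure. It stood at 6.51 RPKM in ZIP10-positive cells, against 48.0 RPKM in ZIP10-negative cells. These values are in the ratio of 5 to 36 whole reads at the fewest, and the annotated transcript of 756 bases gave about 10.1 and 72.5 reads. As deposited Isg15 was 7.38-fold lower in ZIP10-positive cells, and relative to the median gene 14.5-fold lower. The exact 95% counting interval of that log2 ratio, without a pseudocount, was -5.57 to -2.51 from the fewest reads. It was the only gene of the list at least 2-fold lower under every scaling tried, the values as deposited included.

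Ifi27l2a stood at the other end. It encodes a small interferon-induced protein, and it stood at 61.0 RPKM in ZIP10-positive cells, against 1.42 RPKM in ZIP10-negative cells, which corresponds to 44 reads and 1 read at the fewest. The ratio as deposited was 42.9, and its exact counting interval ran between 7.31 and 1733, wide because of the single read. Relative to the median gene the log2 ratio was 4.45 without a pseudocount, with an interval of 1.89 to 9.78, and 3.89 with the pseudocount. Isg15 and Ifi27l2a are thus both interferon-stimulated genes, and their counting intervals lay on opposite sides of the median gene.

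The Ifitm genes, whose membrane proteins block entry of enveloped viruses, were the most abundant of the list per length of transcript. Ifitm2 stood at 599 RPKM in ZIP10-positive cells, against 320.2 RPKM in ZIP10-negative cells, Ifitm3 at 318 and 108 RPKM, and Ifitm1 at 106 and 68.0 RPKM. As deposited all 3 were higher in ZIP10-positive cells, but relative to the median gene the log2 ratios were -0.076 for Ifitm2, 0.58 for Ifitm3 and -0.33 for Ifitm1. Ifitm3 stayed above 0 under every scaling tried, while Ifitm1 and Ifitm2 were above 0 only as deposited. The 3 genes are direct neighbours among protein-coding genes and close relatives, so reads can be shared between them and their single values are uncertain to that extent.

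Bst2, which encodes tetherin, a protein that holds budding virus at the cell surface, stood at 28.1 RPKM in ZIP10-positive cells, against 9.83 RPKM in ZIP10-negative cells. At the fewest these are 44 and 15 reads, and its log2 ratio relative to the median gene was 0.54 without a pseudocount, with a counting interval of -0.34 to 1.49. Zbp1, a sensor of Z-form nucleic acid that can trigger cell death, stood at 8.63 and 1.91 RPKM, a log2 ratio of 0.96. Its estimated reads, about 43 and 9 on the median annotated length, gave an interval of 0.19 to 2.46. Ifi35 stood at 14.9 RPKM in ZIP10-positive cells, against 11.5 RPKM in ZIP10-negative cells, and its log2 ratio of 0.35 as deposited became -0.56 relative to the median gene. With the pseudocount all 3 lay within 2-fold of the median gene, and the intervals of Bst2 and Ifi35 spanned it. Zbp1 was 2.29-fold higher without a pseudocount.

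The Oas genes make the messenger that activates the antiviral nuclease RNase L. Oas1a stood at 4.02 RPKM in ZIP10-positive cells, against a listed 0 in ZIP10-negative cells, and Oas3 stood at 1.55 and 1.39 RPKM. Oas1a has near-identical copies, among them Oas1g, which showed the same pattern at 2.78 RPKM against a listed 0, and the 2 values may share reads. Oasl2, an Oas-like gene, stood at 1.59 and 0.75 RPKM, and its neighbour Oasl1 was listed at 0 in ZIP10-positive cells and stood at 0.38 RPKM in ZIP10-negative cells. Oas2 was listed at 0 in both libraries. Low as these levels are, no direction was shared by the Oas and Oas-like genes.

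The Ifit genes, whose proteins bind foreign RNA and restrain its translation, were also low and divided. Ifit1 stood at 0.15 RPKM in ZIP10-positive cells, against 0.98 RPKM in ZIP10-negative cells, Ifit2 at 1.44 and 0.20 RPKM, and Ifit3 at 0.40 RPKM against a listed 0. Ifit2 rested on 15 and 2 reads at the fewest, and its log2 ratio of 1.89 without a pseudocount had a counting interval of -0.21 to 5.06. The values of Ifit1 imply a transcript longer than the longest annotated, so they cannot be whole reads, and the annotated length gave about 1.0 and 6.5 reads. Ifit1 was thus higher in ZIP10-negative cells by a handful of reads, while Ifit2 and Ifit3, direct neighbours of each other among coding genes, had the larger values in ZIP10-positive cells.

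Among the other effectors the values were at or under 3 RPKM. Xaf1, a pro-apoptotic gene, stood at 2.62 RPKM in ZIP10-positive cells, against 2.13 RPKM in ZIP10-negative cells, and Cmpk2, a mitochondrial nucleotide kinase, at 1.68 and 1.48 RPKM. The guanylate-binding protein genes Gbp3 and Gbp2 stood at 1.25 and 0.32 RPKM in ZIP10-positive cells, against 0.45 and 0.33 RPKM in ZIP10-negative cells. Rtp4 stood at 1.05 RPKM against a listed 0. Mx1 and Mx2, which encode dynamin-like antiviral GTPases, and Usp18, the protease that removes Isg15 from proteins, were listed at 0 in both libraries; C57BL/6 is one of the strains known to carry a defective Mx1 gene.

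Members with the response element core did not share a direction. Of the 10 that held it and reached 1 RPKM in a library, 6 lay above the median gene and 4 below, with a median log2 ratio of 0.12, and 1 (Oas1a) was 2-fold higher or more and 1 (Isg15) 2-fold lower or more. Of the 20 that had a promoter without it, 11 lay above and 9 below, with a median of 0.24. Over all 12249 genes compared 6675 lay above, with a median of 0.094. Of these 12249 genes 14.7% were 2-fold higher or more and 11.4% 2-fold lower or more. Oas1a reached 1 RPKM in ZIP10-positive cells alone, against a listed 0, so it could count as higher only.

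**Figure D2:**
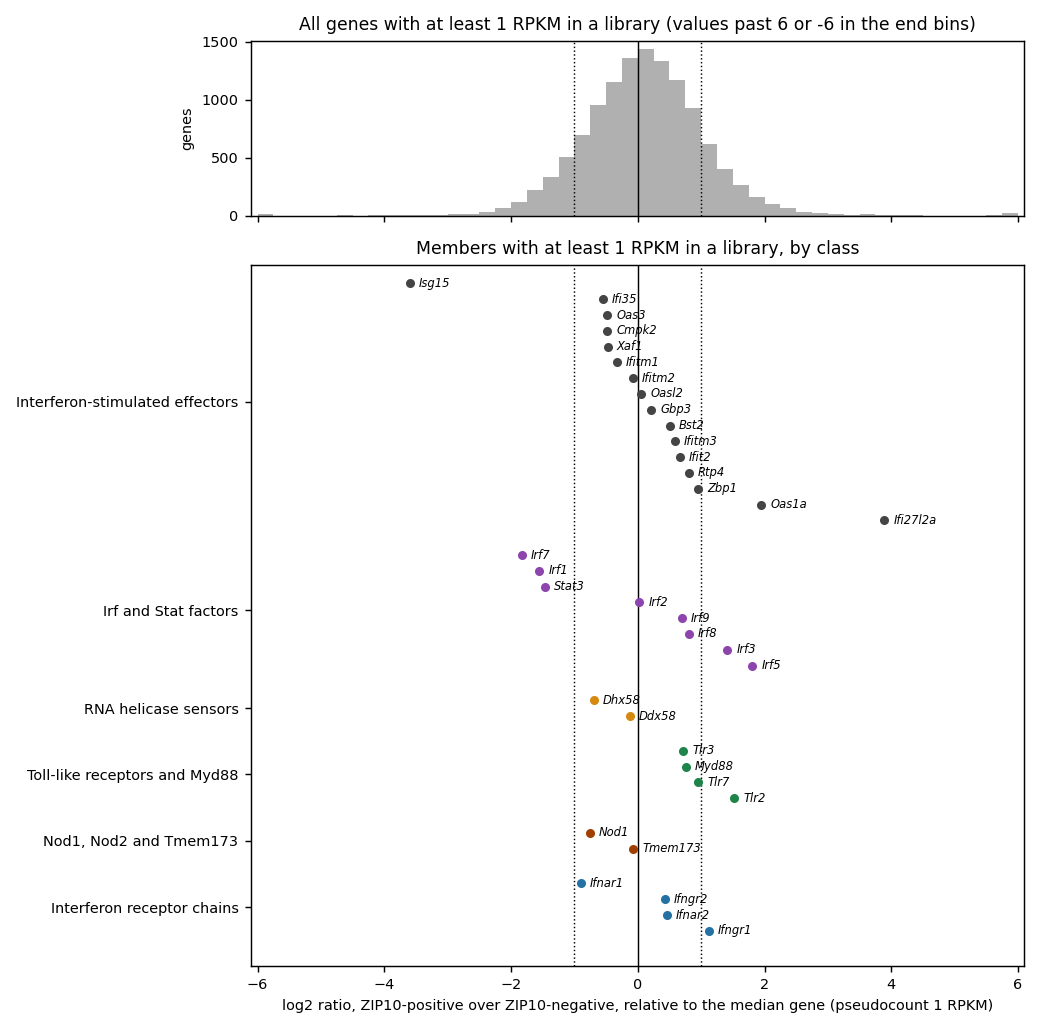
Log2 ratio of ZIP10-positive over ZIP10-negative relative to the median gene, with a pseudocount of 1 RPKM, for all 12249 genes compared (histogram) and for the 36 members at 1 RPKM or more in a library (points, by class). The dotted lines mark 2-fold. Isg15 at -3.60 and Ifi27l2a at 3.89 lie far out. The Irf and Stat factors divide into a group below -1 and a group above 0, in which Irf2 at 0.022 lies almost on 0.

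The Irf and Stat factors were the class with the most genes at least 2-fold from the median gene. Of 9 factors 8 reached 1 RPKM, all of them in both libraries. Relative to the median gene 2 (25.0%, against 14.7% of all genes) were 2-fold higher or more in ZIP10-positive cells. Another 3 (37.5%, against 11.4%) were 2-fold lower or more. The median log2 ratio was 0.36, above 0 under each scaling, but it falls between Irf2 at 0.022 and Irf9 at 0.69, with no factor near it.

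Irf3 and Irf5 were the higher ones. Irf3, the latent factor that first switches on interferon genes after sensing, stood at 22.8 RPKM in ZIP10-positive cells, against 3.90 RPKM in ZIP10-negative cells. Its log2 ratio relative to the median gene was 1.41, and about 36 and 6 estimated reads gave a counting interval of 0.31 to 3.11. Irf5, a factor of macrophages and other myeloid cells downstream of Toll-like receptors, stood at 16.3 and 1.85 RPKM. Its log2 ratio was 1.81, with an interval of 0.76 to 4.18 from about 38 and 4 estimated reads. Both intervals lay above the median gene, but that of Irf3 spanned it under both other scalings, which moved the zero point by 0.31 and 0.42.

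Irf8, which directs the development of monocytes and dendritic cells, stood at 7.80 RPKM in ZIP10-positive cells, against 1.96 RPKM in ZIP10-negative cells. At the fewest these are 57 and 14 reads, and the log2 ratio without a pseudocount was 1.01 with a counting interval of 0.15 to 1.97, which spanned the zero point under both other scalings. Irf9, the DNA-binding partner of Stat2 in the complex that drives effector genes, stood at 10.7 and 3.10 RPKM. Its log2 ratio without a pseudocount was 0.82, and its interval of -0.28 to 2.07 from 32 and 9 reads spanned the median gene. Irf2, which can oppose Irf1, stood at 5.51 and 2.74 RPKM and lay on the median gene, with a log2 ratio of 0.022 that turned to -0.23 when the 50 most abundant genes were kept out of the scaling.

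Irf7, Irf1 and Stat3 were higher in ZIP10-negative cells as deposited and lower in ZIP10-positive cells under every scaling. Irf7, the factor that amplifies interferon production and is itself interferon-induced, stood at 7.14 RPKM in ZIP10-positive cells, against 14.7 RPKM in ZIP10-negative cells. Its log2 ratio relative to the median gene was -1.83, and about 12 and 24 estimated reads gave an interval of -3.15 to -0.96. Irf1, an early target of interferon gamma, stood at 2.79 and 5.52 RPKM. At the fewest these are 15 and 29 reads, and the log2 ratio without a pseudocount was -1.97 with an interval of -2.97 to -1.02. Stat3, which relays cytokines of the IL-6 family, stood at 10.8 and 16.3 RPKM, a log2 ratio of -1.46 with an interval of -2.61 to -0.63 from about 16 and 24 estimated reads. As deposited and with the pseudocount, none of these 3 was 2-fold lower. Stat2, the partner of Irf9, stood at 0.34 and 0.53 RPKM, which are 2 and 3 reads at the fewest, too few to place it.

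The cytosolic RNA sensors were near 1 RPKM in both libraries. Ddx58 stood at 1.29 RPKM in ZIP10-positive cells, against 0.78 RPKM in ZIP10-negative cells, Ifih1 at 0.76 and 0.71 RPKM, and Dhx58 at 1.30 and 1.50 RPKM. With the pseudocount none was 2-fold from the median gene, while without it Dhx58 was 2.27-fold lower. The counting intervals of Ifih1, -2.25 to 0.52 from 11 and 10 reads at the fewest, and of Dhx58, -2.76 to 0.36 from 8 and 9 reads, both spanned it. With the main scaling both intervals also reached past 2-fold below the median gene, so such a difference could not be told from none. Scaled without globin genes and Rn45s, the interval of Dhx58 lay below the zero point.

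Toll-like receptor values were higher in the ZIP10-positive library for 6 of 7 receptors and for Myd88, with Tlr4 the exception, but all receptors were low. Over all genes with unequal values 78.3% were larger in the ZIP10-positive library, so this count sets the receptors little apart. Tlr2, a receptor for bacterial lipopeptides, stood at 4.20 RPKM in ZIP10-positive cells, against 0.28 RPKM in ZIP10-negative cells, or 31 and 2 reads at the fewest. Its log2 ratio without a pseudocount was 2.94 relative to the median gene, with a counting interval of 0.97 to 6.05. Tlr3, a receptor for double-stranded RNA, stood at 1.48 and 0.18 RPKM, and its interval of -0.0018 to 5.23 from 17 and 2 reads just reached the median gene. Tlr7, a receptor for single-stranded RNA in endosomes, stood at 1.32 RPKM against a listed 0.

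The other Toll-like receptors stayed under 0.5 RPKM. Tlr1, Tlr5 and Tlr6 stood at 0.23, 0.24 and 0.075 RPKM in ZIP10-positive cells and were listed at 0 in ZIP10-negative cells. Tlr4, the receptor for bacterial endotoxin, was listed at 0 in ZIP10-positive cells and stood at 0.40 RPKM in ZIP10-negative cells, about 1.2 reads on its median annotated length. Myd88, the adaptor that most Toll-like receptors share, was far above its receptors at 17.5 RPKM in ZIP10-positive cells, against 4.98 RPKM in ZIP10-negative cells. Its log2 ratio was 0.76, with an interval of 0.16 to 1.54 from about 86 and 24 estimated reads. As 3 of the 4 genes of this class that were compared reached 1 RPKM in ZIP10-positive cells alone, the class median of 0.86 is no evidence of a direction.

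Nod1 and Nod2, sensors of bacterial cell wall fragments, and Tmem173 were not set apart. Nod1 stood at 2.89 RPKM in ZIP10-positive cells, against 2.96 RPKM in ZIP10-negative cells, Nod2 at 0.24 and 0.17 RPKM, and Tmem173 at 6.50 and 3.51 RPKM. Relative to the median gene the log2 ratios of Nod1 and Tmem173 were -0.75 and -0.073; Tmem173 was higher as deposited. The interval of Tmem173, -1.27 to 1.18 from 19 and 10 reads at the fewest, spanned the median gene. Nod1 allows no interval of use, since its values are equal apart from the depth factor and fit 1 read each as well as any multiple.

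All 4 interferon receptor chains were measured above 4 RPKM in both libraries. Ifngr1, the ligand-binding chain for interferon gamma, stood at 21.6 RPKM in ZIP10-positive cells, against 4.66 RPKM in ZIP10-negative cells, and its partner Ifngr2 at 20.8 and 7.69 RPKM. Ifnar2, the high-affinity chain of the type I receptor, stood at 36.8 and 13.4 RPKM, while its partner Ifnar1 stood at 6.54 and 6.80 RPKM. Relative to the median gene the log2 ratios were 1.12 for Ifngr1, 0.42 for Ifngr2, 0.46 for Ifnar2 and -0.90 for Ifnar1.

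Ifnar1 lay below the median gene, with an interval of -1.94 to -0.094 from about 22 and 22 estimated reads, and the interval of Ifnar2 was -0.12 to 1.08 from about 92 and 33 estimated reads, which spanned it. Ifnar1 became 2-fold lower or more when the 50 most abundant genes were kept out of the scaling (-1.17), without globin genes and Rn45s (-1.26) and with a pseudocount of 0.1 RPKM (-1.02). Ifnar2 was at 0.062 without globin genes and Rn45s. The interval of Ifngr1, -0.36 to 3.25 from 19 and 4 reads at the fewest, spanned the median gene, and its 2-fold difference was lost when those 50 genes were kept out of the scaling. Ifnar2, Ifnar1 and Ifngr2 lie next to each other on the chromosome with 1 coding gene between the type I chains.

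**Figure D3:**
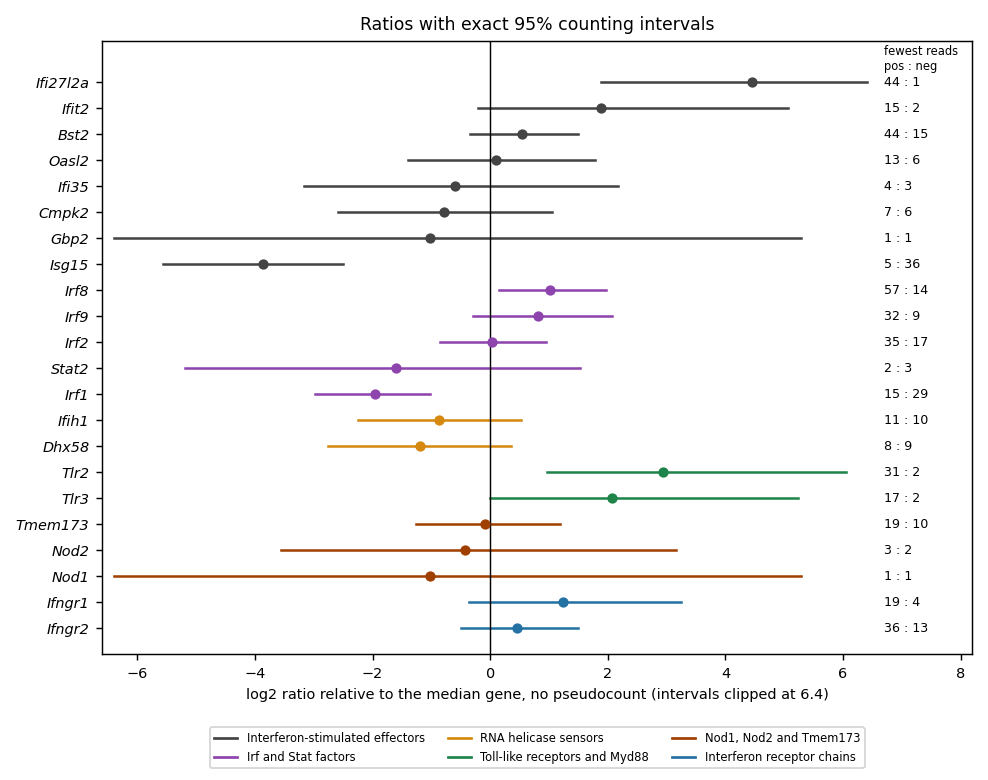
Log2 ratio relative to the median gene, without a pseudocount, for the 22 members whose values fit whole reads, with exact 95% binomial intervals (lines) from the fewest reads that give each ratio, printed at the right as ZIP10-positive to ZIP10-negative. Intervals of Ifi27l2a, Irf8 and Tlr2 lie above the median gene and those of Isg15 and Irf1 below it, and the other 17 span it. Under both other scalings that of Irf8 spans the zero point.

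Depth limited what could be placed. Of the 38 members above 0 in both libraries 22 had values that fit whole reads, and 17 of their 22 counting intervals spanned the median gene. The fewest reads give the widest interval, as true numbers may be a multiple of them. For the other 16, reads estimated from the median annotated length gave intervals above the median gene for 5 (Irf5, Irf3, Ifitm3, Zbp1 and Myd88), below it for 4 (Irf7, Stat3, Ifnar1 and Ifit1) and across it for 7. Under both other scalings Irf5 alone of these 5 stayed above the zero point, and Ifitm1 and Ifitm2 joined the 4 below it. Of the 22 whole-read intervals, those of Ifi27l2a and Tlr2 then lay above, and those of Isg15 and Irf1 below, joined by Dhx58 without globin genes and Rn45s. All intervals cover counting error only, since reads carry no molecular identifiers and there is no replicate. Reads estimated from the median annotated length are rough and can be several-fold too low. For Irf2 that estimate gave about 5.6 and 2.7 reads, where the fewest whole reads were 35 and 17. For Irf8 it gave about 23.5 and 5.8, where they were 57 and 14. The placement of the 16 genes above, below or across a zero point is uncertain to that extent.

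Other genes of the pathway, from written lists, were counted the same way. Of 36 other interferon-stimulated genes compared, 5 lay 2-fold or more above the median gene and 11 lay 2-fold or more below it, with a median log2 ratio of -0.33. These shares were 13.9% and 30.6%, against 14.7% and 11.4% of all genes. Among the 26 at 1 RPKM or more in both libraries 2 lay 2-fold or more above and 6 as far below, with a median of -0.24. Over all genes 960 and 961 of 9620 did so. The rest of the 36 reached 1 RPKM in 1 library alone and could count in that direction only. As deposited the counts were 13 (36.1%) and 4 (11.1%), against 44.1% and 3.55% of all genes. The most abundant were B2m, the light chain of class I molecules, at 595 RPKM in ZIP10-positive cells, against 186 RPKM in ZIP10-negative cells, Tapbp, which loads peptides onto them, at 75.1 and 42.0 RPKM, the lysosomal thiol reductase Ifi30 at 84.0 and 23.7 RPKM, and the immunoproteasome subunit Psmb8 at 59.2 and 26.4 RPKM. Their log2 ratios ran between -0.14 (Tapbp) and 0.83 (Ifi30).

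Kinases, Stats and inhibitors of the JAK-STAT route lay mostly below the median gene. Of 15 compared none was 2-fold higher and 5 (33.3%, against 11.4% of all genes) were 2-fold lower or more, with a median log2 ratio of -0.58, although as deposited 1 was higher and none was lower. Socs3, an inhibitor of cytokine receptors and a target of Stat3, stood at 22.4 RPKM in ZIP10-positive cells, against 28.9 RPKM in ZIP10-negative cells, and Stat5b at 10.8 and 14.4 RPKM. The phosphatase genes Ptpn6 and Ptpn11 stood at 20.9 and 14.6 RPKM in ZIP10-positive cells, against 16.2 and 7.44 RPKM in ZIP10-negative cells.

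Adaptors and kinases downstream of the sensors included 5 of 25 compared that were 2-fold higher or more, a share near the 14.7% of all genes, and none that was 2-fold lower. Of the 21 of them at 1 RPKM or more in both libraries, 1 was 2-fold higher or more. The median log2 ratio of the 25 was 0.11. Unc93b1, which carries endosomal Toll-like receptors to their place, stood at 25.1 RPKM in ZIP10-positive cells, against 4.73 RPKM in ZIP10-negative cells, and Nfkbia, the inhibitor of NF-kappa-B, at 54.1 and 16.1 RPKM. Chaperones of Toll-like receptors were closer, with Hsp90b1 at 49.6 and 46.8 RPKM and Cnpy3 at 26.3 and 14.8 RPKM. Of 14 other sensors compared, 6 (42.9%, against 14.7% of all genes) were 2-fold higher or more and none was 2-fold lower. All 6 reached 1 RPKM in ZIP10-positive cells alone, so they could count in that direction only. Of the 5 at 1 RPKM or more in both libraries none was 2-fold higher, with a median of 0.41. The median of the 14 was 0.86, and 9 of the 22 measured were listed at 0 in ZIP10-negative cells alone. Clec7a, the beta-glucan receptor dectin-1, stood at 17.8 RPKM against such a listed 0, and the inflammasome adaptor Pycard at 33.3 and 12.6 RPKM. The helicase Dhx9 stood at 24.6 and 15.8 RPKM and the mitochondrial NOD-like protein Nlrx1 at 10.8 and 3.81 RPKM.

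Interferons themselves were mostly listed at 0. Of 19 interferon genes measured 17 were listed at 0 in both libraries, every alpha and beta gene measured among them. Ifng, the type II interferon of T and NK cells, stood at 1.79 RPKM in ZIP10-positive cells, against 0.37 RPKM in ZIP10-negative cells.

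**Figure D4:**
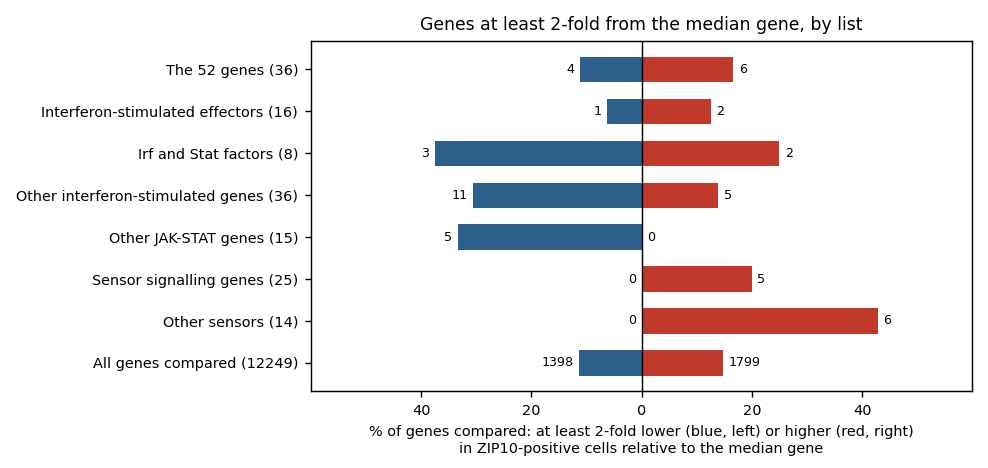
Share of genes at least 2-fold higher (red, right) or lower (blue, left) in ZIP10-positive cells relative to the median gene, for the 52 genes, for 2 of their classes, for other lists of the pathway and for all genes compared, with the number compared in brackets and the counts at the bar ends. The 52 genes as a whole lie near the shares of all genes, and JAK-STAT genes extend to the left alone and sensor genes to the right alone. The 6 higher genes among the other sensors reached 1 RPKM in ZIP10-positive cells alone, so they could count to the right only. The filter also bears on the sensor signalling genes. Of the 21 of them at 1 RPKM or more in both libraries 1 was higher, against 960 of 9620 such genes overall in the comparison.

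Cell type markers differed between the libraries along with these genes. The titles speak of hair follicle cells, and the 9 keratinocyte markers summed to 3565 RPKM in ZIP10-positive cells, against 1311 RPKM in ZIP10-negative cells, so keratinocyte RNA was present in both. The 10 macrophage markers measured summed to 1151 and 60.2 RPKM, with Lyz2 giving 772 RPKM of the ZIP10-positive sum. Relative to the median gene 6 of 9 compared (66.7%, against 14.7% of all genes) were at least 2-fold higher. Lyz2, Aif1, Fcgr1 and Mrc1 were listed at 0 in ZIP10-negative cells. Of the 4 at 1 RPKM or more in both libraries 1 was 2-fold higher, and Cx3cr1 lay below the median gene (-0.67). The 10 neutrophil markers summed to 1680 and 16.3 RPKM, with 8 of 8 compared higher. Mpo and Elane were listed at 0 in both libraries, and S100a9, Ngp, Camp, Ltf and Retnlg in ZIP10-negative cells. Of those 8 only S100a8 reached 1 RPKM in both libraries, so the others could count as higher only. The 8 dendritic cell markers summed to 749 and 84.1 RPKM, with H2-Ab1 and Cd74 giving 399 and 340 RPKM of the ZIP10-positive sum. Of 6 compared 4 (66.7%, against 14.7% of all genes) were higher, and Flt3 and Zbtb46 were listed at 0 in ZIP10-negative cells. Of the 3 at 1 RPKM or more in both libraries 2 were higher. Itgax, Xcr1 and Siglech lay below the median gene (-0.026, -0.021 and -0.43), with Xcr1 and Siglech under 1 RPKM in both libraries.

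T cell and red cell markers went the other way. The 5 T cell markers measured summed to 117 RPKM in ZIP10-positive cells, against 675 RPKM in ZIP10-negative cells, with all 5 at least 2-fold lower. The 7 erythrocyte markers summed to 16377 and 283754 RPKM, with all 7 lower, where the share over all genes compared was 11.4%. Cd8a and Slc4a1 reached 1 RPKM in ZIP10-negative cells alone, so they could count as lower only. The 6 fibroblast markers summed to 531 and 447 RPKM, with 1 higher (Lum) and 1 lower (Col1a1). The 6 endothelial markers summed to 8.18 and 3.67 RPKM, with neither of the 2 compared 2-fold from the median gene, Tek listed at 0 in ZIP10-negative cells and Emcn at 0 in both. The part of these cell types in the values of Irf5, Irf8, Tlr2, Ifi27l2a, Isg15, Irf7 and the other members was not tested, and in a sorted mixture fewer cells of a type and less RNA per cell cannot be told apart.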

How the data were processed

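Values were used in RPKM, the unit that the name of the authors' deposited table gives. Per the submitters' processing notes the tools were Cufflinks, TopHat and cutadapt, with mouse build mm9; for none of them is a version or a role given in the sources used here, nor is the annotation or strand setting. Genes that overlap or have near-identical copies can share reads.

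From these values log2((ZIP10-positive + 1)/(ZIP10-negative + 1)) was computed after both libraries were scaled to the median gene, defined over genes at 1 RPKM or more in both. A gene was compared where either library reached 1 RPKM, and genes 2-fold apart were counted by size alone. Named are every member, up to 4 of the most abundant genes of each other list by mean of both libraries, and defining markers; Oas1g, Psmg4, Ndufaf3, the markers with a direction and the closing observations were named after their values were seen. The members and lists were chosen with earlier results of these data known.

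Whole reads were recovered from ratios of the values. Per read, the ratio of a ZIP10-positive to a ZIP10-negative value was 0.975, and 67.4% of 1317 low genes (neither library above 1 RPKM) fit whole numbers up to 20 within 0.0012%, against 0.414% at wrong factors. Members were matched up to 60 reads, and 4 matches were dropped because they implied a transcript over 5% longer than the longest in GENCODE vM21. Depth came from 454 single-transcript genes, 22.5% of them within 1.4% of the mode, with an assumed length offset of 199 bases. Intervals are exact binomial ones at 95%. The depth factor, the recovered read ratios and the median shift were tested on simulated whole reads. Planted changes much larger than 2-fold were checked for passing the 2-fold threshold, but the share of genes counted wrongly was not. Apart from planted changes both simulated libraries had the same expected levels. A shift of the median gene as in these data, or a library dominated by globin, was therefore not simulated. Absolute depth, the length offset, the length rule, reads from annotated lengths and the intervals were not tested in this way. The tools were Python 3.11.15, pandas 2.3.3, numpy 2.4.6, scipy 1.17.1 and matplotlib 3.10.9. Other scalings, pseudocounts and filters were tried. Protein identity between related members was planned and was not run, as no protein sequences were used here.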

Additional observations from a re-analysis of the deposited data

How the results depend on the processing

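Scaling set the counts. As deposited 18 members were at least 2-fold higher and 1 was lower, in place of 6 and 4. A pseudocount of 0.1 RPKM gave 11 higher, and a pseudocount of 5 RPKM gave 3. The other counts were within 1.5 times those reported. Keeping the 50 most abundant genes out of the scaling moved the zero point by 0.31 on the log2 scale and scaling without globin genes and Rn45s by 0.42. Of the 6 higher members 5 were shared under either, Ifngr1 being lost, and so were all 4 lower ones, with Ifnar1 added under both and Nod1 without globin genes. Of 36 single log2 ratios, 8 turned sign as deposited and 2 (Oasl2 and Irf2) under each of these scalings, and all 8 had been below 0 with the main scaling. The effectors' median turned to -0.018 and -0.067 under these scalings and to -0.33 with at least 1 RPKM in both libraries, and to -0.012 without members listed at 0. Medians of the RNA helicase sensors and of Nod1, Nod2 and Tmem173 turned to 0.12 and 0.35 as deposited. No paired analysis was possible because each group had 1 library, so leaving out a replicate could not be done either. Members under about 2 RPKM rest on few reads, and a listed 0 may be a failed estimate.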

Other observations

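The following genes were chosen after their values were seen, from the lists of other interferon-stimulated genes, sensor signalling and other sensors, and are given as values. Psmb8, Psmb9 and Psmb10 encode subunits of the immunoproteasome, which cuts peptides for class I molecules. Psmb9 stood at 34.0 RPKM in ZIP10-positive cells, against 5.50 RPKM in ZIP10-negative cells, a log2 ratio of 1.53, and Psmb10 at 35.0 and 6.22 RPKM, a log2 ratio of 1.42, while Psmb8 was at 0.18 and turned to -0.12 and -0.22 under the other scalings. Several interferon-inducible GTPases act on vacuoles of intracellular microbes. As deposited the values of those that follow ran in both directions. Relative to the median gene those above 0 in a library lay below it, from Ifi47 at -0.19 to Tgtp1 at -1.80, except Gbp5 at 0.37. Igtp stood at 1.18 RPKM in ZIP10-positive cells, against 3.64 RPKM in ZIP10-negative cells, and Tgtp1 and Tgtp2, near-identical copies that can share reads, at 0.24 and 0.48 RPKM in ZIP10-positive cells, against 2.19 and 1.50 RPKM in ZIP10-negative cells. Irgm2 stood at 1.98 and 2.76 RPKM and Gbp4 at 0.17 and 1.01 RPKM. Irgm1, at 2.66 and 2.55 RPKM, and Ifi47, at 5.87 and 3.51 RPKM, were less than 2-fold from the median gene, and Iigp1 was listed at 0 in both libraries. Gbp6 and Gbp7 stood at 0.087 and 0.17 RPKM in ZIP10-positive cells, against 0.56 and 0.28 RPKM in ZIP10-negative cells, Gbp5 at 0.41 RPKM against a listed 0, and Gbp8 at a listed 0 against 0.31 RPKM.

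Lgals3bp, a secreted glycoprotein, stood at 15.4 RPKM in ZIP10-positive cells, against 37.1 RPKM in ZIP10-negative cells, and Sp100, a component of nuclear bodies, at 1.10 and 4.43 RPKM, with log2 ratios of -2.15 and -2.01 relative to the median gene. Like Isg15, these were at least 2-fold lower as deposited too. Casp1, the inflammasome protease, stood at 4.66 RPKM against a listed 0, and Irak2 and Ripk2, kinases downstream of Toll-like receptors and of Nod1 and Nod2, at 3.25 and 2.75 RPKM in ZIP10-positive cells, against 0.19 and 0.22 RPKM in ZIP10-negative cells.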
